A study of Saccharomyces cerevisiae with 2 samples.

Results

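The RNAs described here are those that yeast needs to cleave its ribosomal RNA precursor rather than only to modify it: the H/ACA snoRNA snR30, the C/D snoRNA U14 (gene SNR128), the C/D snoRNA U3 with its 2 genes SNR17A and SNR17B, and NME1, the RNA of the endonuclease RNase MRP. They were chosen by their known function, but with earlier results of these data known. They make up 5 of the 36 RNAs with reads in the deposited snoRNA lists. The lists come from CRAC, in which UV light links RNA to a protein in living cells, the protein is purified through its tag under denaturing conditions and the attached RNA fragments are sequenced. One culture expressed Rbp95, an assembly factor of early pre-60S particles, with a C-terminal HTP tag (His, TEV site and protein A) in the BY4741 background, and the control culture was untagged BY4741 (given as BY4742 in the methods of the study). Both were grown in minimal medium with glucose and without tryptophan to an OD of 0.6 and irradiated for 100 s, and each gave 1 library, so differences between them cannot be set against a spread of replicates and no p-value is given.

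In yeast, RNA polymerase I makes a 35S transcript in which the 18S rRNA, a short rRNA and the 25S rRNA are joined by spacers, among them the 5′ external transcribed spacer (5′ ETS) before the 18S rRNA and the internal transcribed spacer 1 (ITS1) after it. U3 base-pairs with the 5′ ETS and with the 18S rRNA, U14 and snR30 base-pair with the 18S rRNA, and all of them are needed for the early cleavages in the 5′ ETS and ITS1 that release the precursor of the small subunit. RNase MRP cuts ITS1 further downstream, on the side of the large subunit. Most other snoRNAs guide single modifications, box C/D RNAs the methylation of riboses and box H/ACA RNAs the conversion of uridine to pseudouridine.

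All 5 genes were found in the R64 gene table. SNR30 lies on chromosome XII (198784 to 199389, forward strand, 606 nucleotides), SNR128 on chromosome X (139566 to 139691, reverse strand, 126 nucleotides), SNR17A on chromosome XV (780107 to 780596, forward strand, 490 nucleotides), SNR17B on chromosome XVI (281056 to 281517, reverse strand, 462 nucleotides) and NME1 on chromosome XIV (585587 to 585926, forward strand, 340 nucleotides). The lengths of both U3 genes include an intron that the mature RNA lacks. The sequences printed here are those of the pre-rRNA regions on which these RNAs act, where the deposited pileups place the reads.

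The capitals in the following lines mark the nucleotides around the highest peaks of the Rbp95-HTP pileup in the 5′ ETS, the 18S rRNA and ITS1 that kept at least 50% of the peak height, with 10 flanking nucleotides on either side in lower case. The lines are written 5′ to 3′ as DNA, from the nucleotide column of the deposited pileups, and positions are counted within each region. Only peaks at least 100 nucleotides apart were taken.
5′ ETS, peak at nucleotide 161: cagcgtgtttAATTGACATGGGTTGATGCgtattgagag
5′ ETS, peak at nucleotide 528: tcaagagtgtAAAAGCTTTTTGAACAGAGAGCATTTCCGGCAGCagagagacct
18S rRNA, peak at nucleotide 485: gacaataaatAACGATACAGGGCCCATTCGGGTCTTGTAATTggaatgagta
18S rRNA, peak at nucleotide 322: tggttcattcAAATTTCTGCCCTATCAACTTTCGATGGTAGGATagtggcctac
18S rRNA, peak at nucleotide 1105: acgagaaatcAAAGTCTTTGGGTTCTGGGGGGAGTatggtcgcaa
ITS1, peak at nucleotide 154: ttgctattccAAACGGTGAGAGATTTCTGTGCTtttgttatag
The next line shows, in the same way, the only stretch of these 3 regions in which the control had more than 4 hits per nucleotide.
5′ ETS, control peak at nucleotide 403: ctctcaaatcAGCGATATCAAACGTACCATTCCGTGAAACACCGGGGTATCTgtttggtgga
In the R64 assembly these regions are annotated on the reverse strand of chromosome XII, with the 5′ ETS at 457733 to 458432, the 18S rRNA at 455933 to 457732 and ITS1 at 455572 to 455932, as the first of 2 annotated units of the repeated rDNA.

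With Rbp95-HTP, all 5 processing RNAs were recovered, and snR30 was the most abundant among them. The deposited values are reads per RNA out of 100000 reads of a library. For snR30 this value was 284 in the Rbp95-HTP library, against 1 in the control. For U14 it was 145 in the Rbp95-HTP library. The control list names only 6 RNAs, and U14 is not among them. An RNA absent from the list is counted as 0 here. These RNAs stood high in the Rbp95-HTP library and had at most 1 read per 100000 in the control list.

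The U3 genes gave very different values. SNR17A reached 123 reads per 100000 in the Rbp95-HTP library, against 8170 in the control, a ratio of 0.0151. SNR17B reached 41 in the Rbp95-HTP library and was absent from the control list. SNR17A was the only processing RNA that was lower with Rbp95-HTP. It alone held 99.9% of the control list. The lists give no positions within an RNA, so whether these control reads begin at few positions was not tested. NME1 reached 16 in the Rbp95-HTP library and was also absent from the control list.

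**Figure D1:**
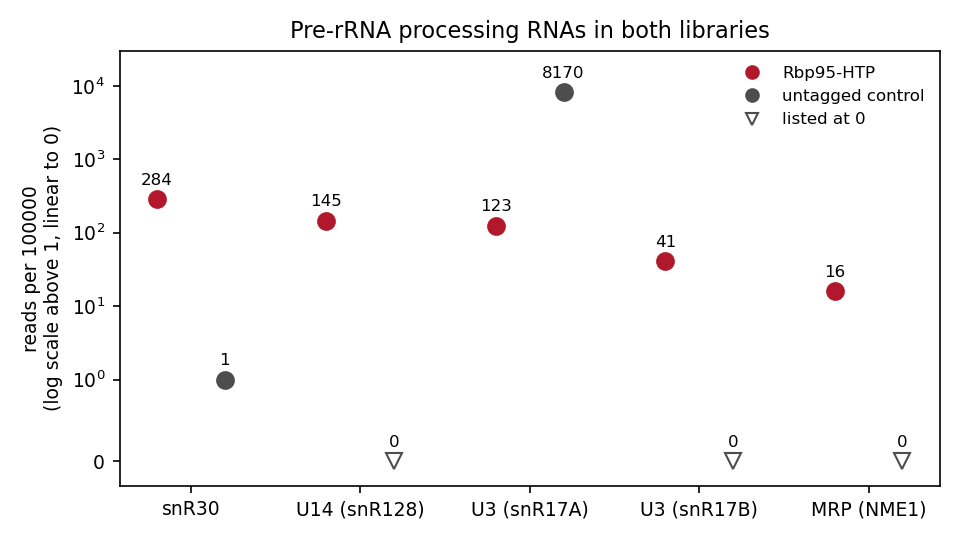
Reads per 100000 of the 5 processing RNAs (vertical axis, logarithmic above 1 and linear down to 0) in the Rbp95-HTP library (red, left) and the untagged control (gray, right). Open triangles, labeled as listed at 0 in the figure, mark RNAs that are absent from the control list. The Rbp95-HTP values lie between 16 and 284, while the control is at 8170 for SNR17A and at 1 for SNR30. The other genes are absent from the control list and drawn at 0.

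A total of 4 of the 5 processing RNAs exceeded their control value by at least 10 reads per 100000 in the Rbp95-HTP library, beside 33 of all 36 listed RNAs (91.7%). The recovery of these 4 RNAs above the control was therefore shared by nearly the whole list. Of the 36 RNAs, 30 were absent from the control list and entered through the Rbp95-HTP list alone. For those RNAs a higher Rbp95-HTP value followed from how the list was formed, so these counts are a description only. The median of the 5 was 123 reads per 100000, compared with 54.5 for all 36 RNAs and 52 for the other 31. Per gene length, as given below, this order was reversed.

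Together the processing RNAs held 609 reads per 100000 in the Rbp95-HTP library, against 8171 in the control. They made up 19.99% of the listed reads with Rbp95-HTP and 99.9% in the control. Without SNR17A, the sums were 486 with Rbp95-HTP and 1 in the control, so the direction of the summed difference depended on this single gene. Leaving out both U3 genes gave 445 with Rbp95-HTP and 1 in the control. Among the 609 Rbp95-HTP reads, snR30 and U14 held 429.

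The U3 snoRNA is encoded by near-identical copies, so reads cannot always be given to one of them. Their sum does not depend on the copy chosen, provided that each such read was counted once. Summed over both genes, U3 took 164 reads per 100000 in the Rbp95-HTP library (0.164% of its reads), against 8170 in the control (8.17%). With Rbp95-HTP, 75% of the U3 reads were assigned to SNR17A, and in the control 100%. How the authors assigned reads that match both copies is not stated. If such reads were dropped or counted at both copies, the sums and the rank of the joined entry are affected too.

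Within the Rbp95-HTP list, snR30 held rank 2 of 36, between snR37, which guides a pseudouridine in the 25S rRNA, with 674 reads per 100000, and snR190, a C/D RNA that base-pairs with the 25S rRNA, with 193. It was 2.31 times as high as SNR17A, 1.96 times as high as U14 and 17.8 times as high as NME1. Among the 14 listed H/ACA RNAs snR30 also held rank 2, and it exceeded the median of the other 13, which was 83 reads per 100000, by a factor of 3.42. Since the sequencing depth is unknown, the gaps in rank have no interval.

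U14 held rank 5, between the H/ACA RNA snR86 with 161 reads per 100000 and SNR17A, and rank 2 among the 21 listed C/D RNAs, after snR190. Its value was 4.20 times the median of the 18 other C/D RNAs, which was 34.5 reads per 100000. U14 both guides a methylation in the 18S rRNA and is needed for cleavage. Its gene lies 69 nucleotides from SNR190 on the same strand, and both are known to be released from a shared precursor. They also stood close in the list, with 145 reads per 100000 for U14 and 193 for snR190.

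SNR17A held rank 6, next to the H/ACA RNA snR10 with 122 reads per 100000. When the genes of U3 were joined into 1 entry, U3 held rank 4 of 35, exceeding snR86 by a factor of 1.02 and U14 by 1.13. SNR17B alone held rank 21, between the H/ACA RNAs snR189 with 46 and snR11 with 40 reads per 100000. NME1 held rank 34, with 17 reads per 100000 for the C/D RNA snR78 above it and 9 for snR69 below it. The processing RNAs thus covered nearly the full range of the list, from rank 2 to rank 34.

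**Figure D2:**
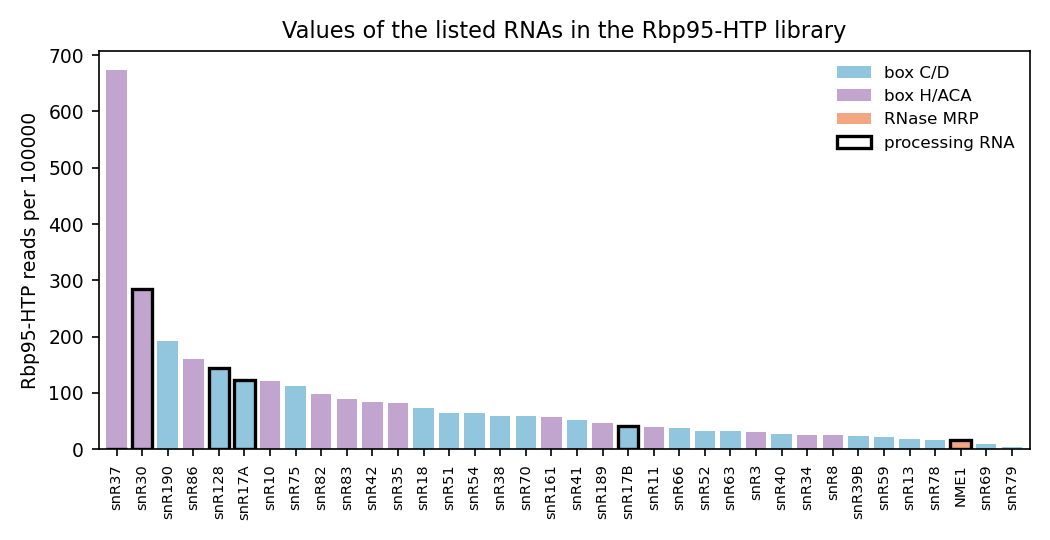
Reads per 100000 in the Rbp95-HTP library for the 36 listed RNAs in order of their value, with bar colors for box C/D RNAs, box H/ACA RNAs and RNase MRP, and black outlines around the 5 processing RNAs. snR30 (284), U14 (145) and SNR17A (123) are among the 6 highest bars, SNR17B (41) lies at rank 21 and NME1 (16) at rank 34.

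The order of the processing RNAs changed when reads were set against gene length. Per 100 nucleotides of gene, U14 had 115.1 reads per 100000, snR30 46.9, SNR17A 25.1, SNR17B 8.87 and NME1 4.71. On this scale U14 held rank 3 and snR30 rank 11, and the level of snR30 was 0.407 times that of U14. SNR17A held rank 21, SNR17B rank 34 and NME1 the last rank, 36. The lengths of both U3 genes include the intron, so their values and ranks on this scale are too low for the mature RNA. The median over all 36 RNAs was 29.0 per 100 nucleotides, so that U14 and snR30 were above it on both scales and SNR17B and NME1 below it on both. The median of the 5 was 25.1 on this scale, compared with 29.1 for the other 31 RNAs. This median is the value of SNR17A, which the intron makes too low. The scale assumes reads spread over the whole gene, which CRAC reads need not be.

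The pathway includes snR10, an H/ACA RNA that guides a modification and is also needed for early cleavage, and snR190. For snR10 the Rbp95-HTP library gave 122 reads per 100000, and the control list did not name it. For snR190 the Rbp95-HTP library gave 193 and the control 2. Both had values within the range of the processing RNAs, as had nearly all listed RNAs. The study's own list of altered nucleotides in snoRNA reads has entries for snR30 and U14, a negative entry for NME1 and no analysis of the U3 genes. Those positions are not used here.

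On the 35S pre-rRNA, the regions on which these RNAs act received a small part of the Rbp95-HTP reads. The pileups give the hits, the number of reads that cover each of the 6858 nucleotides, and each was limited by the authors to 100000 reads. The number of reads was estimated by adding up every increase of the hits from one nucleotide to the next, which gave 97296 reads for Rbp95-HTP and 99994 for the control. Increases that coincide with read ends cancel and are missed, so these numbers are lower bounds. Shares of a peak's hits among them are therefore upper bounds, whereas shares of a region, in which both numbers are estimated this way, can be too low or too high. Whether amplified copies were collapsed is not stated, and the Wilson intervals given below cover counting error only.

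The 18S rRNA, with 1800 nucleotides, had 134092 hits with Rbp95-HTP, against 420 in the control. An estimated 4841 reads lay on it with Rbp95-HTP, or 4.98% of the 35S reads (95% Wilson interval 4.84 to 5.11%), and 11 in the control, or 0.011% (0.00614 to 0.0197%). They covered 879 of its nucleotides with Rbp95-HTP and 203 in the control. ITS1, with 361 nucleotides, had 27644 hits with Rbp95-HTP, against 74 in the control. This corresponded to an estimated 958 reads with Rbp95-HTP, or 0.985% (0.925 to 1.05%), and to 2 in the control, or 0.002% (0.000549 to 0.00729%). Both regions were nearly free of control reads. The control reads were, however, gathered in few stacks. In the control, 5 start positions of reads held 90% of the 35S reads, compared with 83 with Rbp95-HTP. The 25S rRNA took 73.5% of the control reads and the short rRNA 25.2%. With reads limited in number, these stacks lower the control shares of all other regions. The low control shares are therefore relative values, and whether these regions were depleted in the control was not tested.

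The 5′ ETS, with 700 nucleotides, differed from them. It had 30614 hits with Rbp95-HTP (1.05% of the 35S hits), against 53586 in the control (1.33%). Nucleotides 401 to 500 held 99.7% of the control hits of the region, where a single stack of reads reached 1272 hits at nucleotide 403. The Rbp95-HTP library had no hit at that nucleotide and 1007 hits in the same 100 nucleotides. Outside nucleotides 401 to 500, the 5′ ETS had 29607 hits with Rbp95-HTP, against 159 in the control. Without the 100 nucleotides around the highest nucleotide of the region in each library, the difference between the shares, Rbp95-HTP minus control, was 0.566 percentage points instead of -0.284. With the stack kept but the highest Rbp95-HTP peak, in the 25S rRNA, left out of the denominator, it was 1.90 percentage points. The direction of this difference thus depended on both the control stack and the highest Rbp95-HTP peak.

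With Rbp95-HTP, the mean over the 18S rRNA was 74.5 hits per nucleotide, over ITS1 76.6 and over the 5′ ETS 43.7. The 25S rRNA without the highest peak of the library and 50 nucleotides on either side of it had 217.2. The 18S rRNA therefore reached 0.343 times, ITS1 0.353 times and the 5′ ETS 0.201 times the level of the remaining 25S rRNA. The short rRNA downstream of ITS1, with 175.9 hits per nucleotide, was also higher than these regions, and ITS2 with 55.0 lay between the 5′ ETS and the 18S rRNA. Nucleotides with at least 100 hits with Rbp95-HTP and fewer in the control made up 18.6% of the 18S rRNA, 26.9% of ITS1 and 17.6% of the 5′ ETS, below the 28.2% over the whole 35S pre-rRNA.

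**Figure D3:**
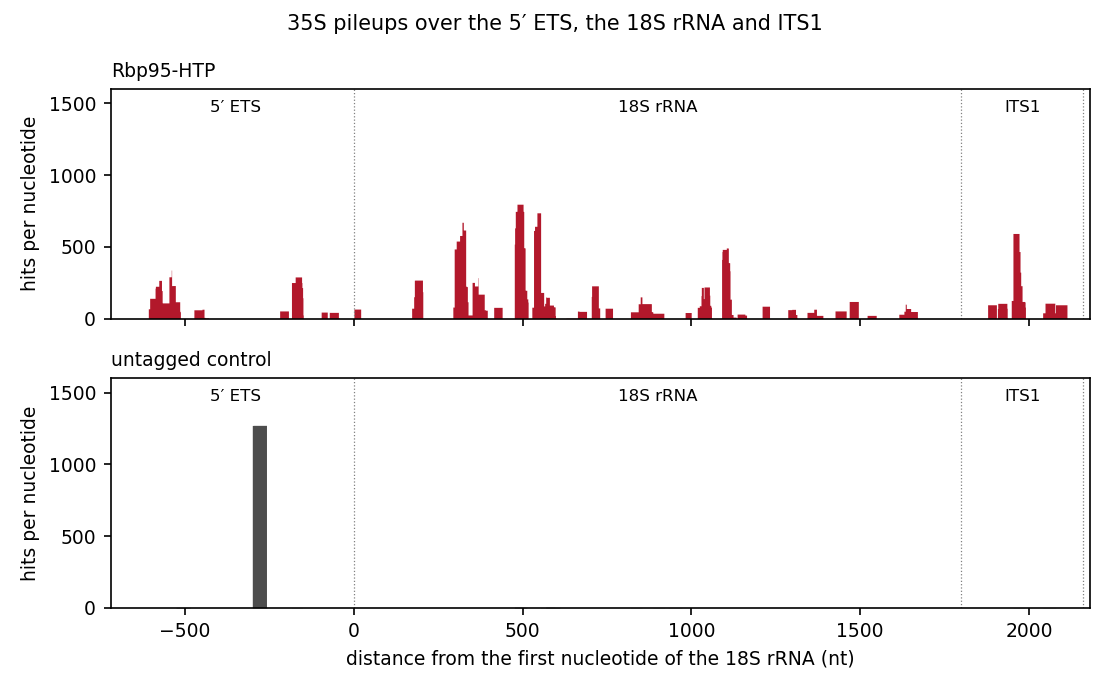
Hits per nucleotide over the 5′ ETS, the 18S rRNA and ITS1 against the distance from the first nucleotide of the 18S rRNA, for the Rbp95-HTP library (upper panel) and the untagged control (lower panel), with dotted lines at the region borders. The Rbp95-HTP hits form separate blocks of up to 797 hits in each region, while the control shows the stack of 1272 hits in the 5′ ETS and is otherwise at 4 hits or fewer.

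Along the 5′ ETS, the Rbp95-HTP hits were uneven. Nucleotides 101 to 200 held 50.2% of them and nucleotides 501 to 600 held 31.0%. The peak at nucleotide 161 had 338 hits with Rbp95-HTP, or 0.347% of the 35S reads (0.312 to 0.386%), and none in the control. The peak at nucleotide 528 had 290 hits with Rbp95-HTP, or 0.298% (0.266 to 0.334%), and 1 in the control. The third peak, at nucleotide 629, had 43 hits with Rbp95-HTP and none in the control. No hit was found in nucleotides 301 to 400 of either library, where 3 reads would correspond to 0.0031% of the Rbp95-HTP reads on the 35S pre-rRNA and to 0.0030% of the control reads. Nucleotides 101 to 200 and 501 to 600 thus held most of the 5′ ETS hits of the Rbp95-HTP library.

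In the 18S rRNA, the Rbp95-HTP hits gathered toward the 5′ side of the molecule. Nucleotides 301 to 400 held 20.9%, nucleotides 401 to 500 held 15.1% and nucleotides 501 to 600 held 20.01% of its hits. The highest point, nucleotide 485, had 797 hits with Rbp95-HTP, or 0.819% of the 35S reads (0.764 to 0.878%), and 4 in the control, or 0.004% (0.00156 to 0.0103%). Nucleotide 322 had 671 hits with Rbp95-HTP, or 0.690% (0.640 to 0.744%), and none in the control. A peak further downstream, at nucleotide 1105, had 492 hits with Rbp95-HTP, or 0.506% (0.463 to 0.552%), and none in the control. These nucleotides were picked as the highest of the Rbp95-HTP library, so their difference from the control is a description only.

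The first 100 nucleotides of the 18S rRNA, near its 5′ end, held 0.984% of the 18S hits with Rbp95-HTP, with at most 66 hits, and none in the control. The last 100 nucleotides, which end at the 3′ border with ITS1, had no hit in either library. The base-pairing sites of U3, U14 and snR30 on these stretches were not analysed here.

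In ITS1, nucleotides 101 to 200 held 68.0% of the Rbp95-HTP hits. The site at which RNase MRP cuts was not placed on these stretches. The peak at nucleotide 154 had 593 hits with Rbp95-HTP, or 0.610% of the 35S reads (0.563 to 0.660%), and 1 in the control. The next peak, at nucleotide 254, had 107 hits with Rbp95-HTP, against 1 in the control. The last 61 nucleotides before the short rRNA had 1248 hits with Rbp95-HTP and none in the control. In all, Rbp95-HTP was higher in 26 of the 29 stretches of up to 100 nucleotides that make up these 3 regions. The exceptions were nucleotides 401 to 500 of the 5′ ETS, where the control was higher, and the 2 stretches without hits in either library. Only 11 of the 29 stretches had any control hit. Over the whole 35S pre-rRNA, the control covered 18.8% of the nucleotides and Rbp95-HTP 56.5%. The same count was not made for the other regions, so it is not a trait of these 3.

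No read crossed the borders at which the mature 18S rRNA is released. The last nucleotide of the 5′ ETS and the first of the 18S rRNA had no hits with Rbp95-HTP and none in the control, and the same held for the last nucleotide of the 18S rRNA and the first of ITS1. At the border between ITS1 and the short rRNA, Rbp95-HTP had no hits on either side. The control had none on the last nucleotide of ITS1 but 25162 on the first of the short rRNA. Further downstream, at the border between the short rRNA and ITS2, up to 81 reads crossed with Rbp95-HTP and none in the control. Reads that join a spacer to the 18S rRNA were therefore not detectable at this depth, where 3 reads are 0.0031% of the Rbp95-HTP reads and 0.0030% of the control reads on the 35S pre-rRNA.

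Substitutions and deletions can mark the crosslinked nucleotide in CRAC reads. Of the hits in the 18S rRNA, 1.03% were altered with Rbp95-HTP (0.974 to 1.08%) and 1.19% of the few control hits (0.510 to 2.76%). In the 5′ ETS the share was 0.755% with Rbp95-HTP (0.664 to 0.858%) and 0.399% in the control (0.349 to 0.456%). In ITS1 it was 1.03% with Rbp95-HTP (0.919 to 1.16%), and 1 of the 74 control hits was altered. Reads covering neighboring nucleotides are the same reads, so these intervals are too narrow.

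A few nucleotides held most of these alterations. Of the 554 nucleotides in the 3 regions with at least 100 hits with Rbp95-HTP, 11 (1.99%) had an altered share of at least 10%, compared with 1.17% over the whole 35S pre-rRNA. They held 62.7% of the altered hits of the regions. Without them, 0.373% of the hits were altered. There were 5 such nucleotides in the 18S rRNA, 3 in the 5′ ETS and 3 in ITS1. The control had at most 4 hits at any of them, so its own altered share could not be measured there. Its only hit at nucleotide 256 of ITS1 was altered, and no control hit at the others was.

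The nucleotides with the highest altered share are shown in capitals within 10 flanking nucleotides on either side, written as DNA.
18S rRNA, nucleotide 545: acgaggaacaAttggagggca
18S rRNA, nucleotide 849: tttctaggacCatcgtaatga
ITS1, nucleotide 189: tgttataggaCaattaaaacc
ITS1, nucleotide 277: ggggcccagaGgtaacaaaca
The A at nucleotide 545 of the 18S rRNA was substituted in 642 of 737 hits (87.1%, 84.5 to 89.3%), and the C at nucleotide 849 in 56 of 103 hits (54.4%, 44.8 to 63.7%). The C at nucleotide 189 of ITS1 was substituted in 112 of 115 hits (97.4%, 92.6 to 99.1%), and the G at nucleotide 277 in 67 of 107 hits (62.6%, 53.2 to 71.2%). In each case the nucleotides within 10 positions that had at least 100 hits were rarely altered, with a median share between 0 and 0.42%. The Rbp95-HTP reads had 54 start positions in the 18S rRNA and 8 in ITS1, and amplified copies may not have been collapsed. The hits at a nucleotide may thus not be independent, and the intervals cover counting error only.

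The remaining 7 nucleotides had altered shares between 10% and 41.0%. In the 18S rRNA, the G at nucleotide 571 was altered in 36.5% of 148 hits, the G at nucleotide 1114 in 14.1% of 389 hits and the C at nucleotide 310 in 10% of 540 hits. In the 5′ ETS, the T at nucleotide 184 was altered in 41.0% of 117 hits, the C at nucleotide 550 in 16.6% of 145 hits and the T at nucleotide 542 in 12.1% of 290 hits. In ITS1, the T at nucleotide 256 was altered in 37.4% of 107 hits. Deletions made up nearly all alterations at nucleotide 310 of the 18S rRNA, with 53 deletions and 1 substitution, and all 35 at nucleotide 542 of the 5′ ETS. Elsewhere only substitutions were found.

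Some of these nucleotides lay within the peaks shown above. Nucleotide 310 of the 18S rRNA belonged to the stretch around nucleotide 322, nucleotide 1114 to that around nucleotide 1105, and nucleotides 542 and 550 of the 5′ ETS to that around nucleotide 528. The most altered nucleotides, 545 of the 18S rRNA and 189 of ITS1, lay outside the stretches of the printed peaks.

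**Figure D4:**
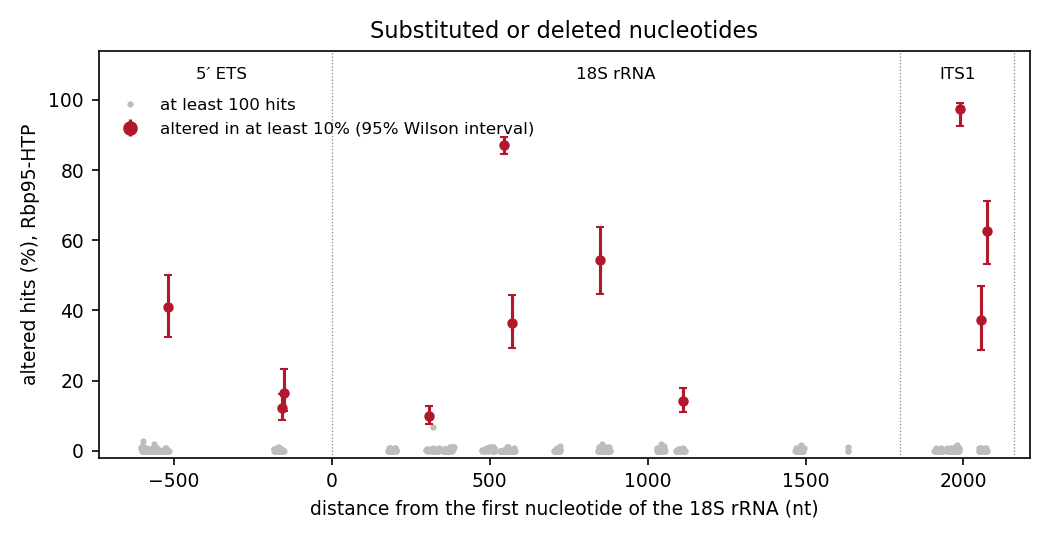
Share of hits with a substitution or deletion (percent) at each nucleotide with at least 100 hits in the Rbp95-HTP library, against the distance from the first nucleotide of the 18S rRNA. The 11 nucleotides altered in at least 10% of the hits are red with 95% Wilson intervals and reach 97.4% in ITS1 and 87.1% in the 18S rRNA, and the other nucleotides (gray) lie below 10%.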

How the data were processed

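Per the labels and methods, the authors trimmed and filtered the reads with Flexbar, mapped them to the R64 genome with Novoalign and counted with pyCRAC. Versions and the handling of duplicates are not given in the sources used here. The deposited snoRNA lists hold a score, reads per RNA out of 100000, and the class tables a score, sequences per class out of 1000000. Both were used without test or interval, since depth is unknown. The deposited 35S pileups hold counts of hits, substitutions and deletions in up to 100000 reads. The design text names Nap1_HTP instead of Rbp95, so the title assigned the tagged library.

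Region borders came from RDN37-1 in the R64 gene table. Peaks were the 3 highest nucleotides of a region at least 100 nucleotides apart. Nucleotides with at least 100 hits, of which at least 10% were altered, were called altered. The named RNAs were the 5 processing RNAs, their neighbors in rank, snR10 and snR190. These members and lists were chosen with earlier results of these data known, and snoRNA classes came from general knowledge. Hits on stretches complementary to the RNAs were planned, and hits per 100 nucleotides took their place. The snoRNA class held 2.95% of the sequences for Rbp95-HTP, against 7.96% for the control, and the lists exceeded these shares by a factor of 1.03 in both libraries. Python 3.11.15, numpy 2.4.6, scipy 1.17.1 and matplotlib 3.10.9 were used. Peak search, altered nucleotides and read numbers were tested on simulated data and recovered in 200 of 200 pileups. The simulated reads lay in separate stacks, each with a common start, so increases could not cancel against read ends. The loss of reads where they do cancel was therefore not tested. Alternatives concerned denominators, left-out genes, gene length, read starts and thresholds.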

Additional observations from a re-analysis of the deposited data

How the results depend on the processing

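With 1 library per condition there was no replicate to leave out, and no paired analysis was possible because each group has a single library. As a percentage of the listed RNAs instead of all reads, the difference between Rbp95-HTP and the control kept its direction for all 5 processing RNAs, with 9.31 percentage points for SNR30, 4.76 for SNR128, 1.35 for SNR17B, 0.525 for NME1 and -95.9 for SNR17A. With SNR17A also left out of the denominator, SNR128 was at 4.96, SNR17B at 1.40 and NME1 at 0.547. SNR30 turned to -6.95 percentage points, because only 6 control reads per 100000 then remained and 1 of them was snR30. The summed difference, -7562 reads per 100000, turned to 485 without SNR17A and to 444 without both U3 genes, and was -7578 without NME1. Per gene length, with the U3 introns included, the ranks were 11 for SNR30, 3 for SNR128, 21 for SNR17A, 34 for SNR17B and 36 for NME1. With the U3 genes summed, U3 (SNR17A and SNR17B) held rank 4, SNR128 rank 6 and NME1 rank 33. The difference in the share of 35S hits on the 5′ ETS, -0.284 percentage points, was -0.257 with estimated read starts, but turned to 1.90 without the highest Rbp95-HTP peak in the denominator and to 0.566 without the 100 nucleotides around the highest nucleotide of the region in each library. Under the same alternatives the difference on the 18S rRNA, 4.58, was 4.96, 14.1 and 3.68, and that on ITS1, 0.944, was 0.983, 2.91 and 0.311. The 11 altered nucleotides became 4 at a minimum of 200 hits, 7 at a minimum of 20% altered, and 1 with deletions alone, and 13 at a minimum of 50 hits and 9 with substitutions alone. The alternatives for complementary stretches were not run, since hits per 100 nucleotides took their place.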

Other observations

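Most of the few control reads in the 18S rRNA and ITS1 began at nucleotides where Rbp95-HTP reads began as well. In ITS1, both start positions of the control were also start positions with Rbp95-HTP, and in the 18S rRNA 3 of 6 were, with 8 of the 11 control reads. In the 5′ ETS, 1 of 4 was shared, and the stack at nucleotides 401 to 442 was not. Start positions of the Rbp95-HTP library made up 2.69% of the 2861 nucleotides of these regions. Sharing was not particular to them. In the 25S rRNA without the highest Rbp95-HTP peak, 27 of 37 control start positions were shared, with 58093 of 73485 control reads. The number of hits in the control was 0.313% of the Rbp95-HTP number on the 18S rRNA, 0.268% on ITS1 and 0.537% on the 5′ ETS outside nucleotides 401 to 500. The control reads in the snoRNA list without SNR17A were 0.205% of those with Rbp95-HTP. These are values of single libraries, and 5 start positions held 90% of the control reads on the 35S pre-rRNA.

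Most start positions of the Rbp95-HTP reads in these regions were an A. Of 71 start positions with a net gain of at least 10 reads, 54 (76.1%) were an A, while A makes up 27.6% of the 2861 nucleotides. The nucleotide before the start was a T in 36 and a C in 26 of them, and an A or G in the other 9. The start positions come from 1 library, and the origin of this pattern was not tested.

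The reads differed in length between the libraries, with an estimated mean of 30.9 nucleotides with Rbp95-HTP and 42.0 in the control on the 5′ ETS. The control stack there was 42 nucleotides long from its first to its last position at 50% of its height, with a net 1271 reads beginning at or next to its left edge.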
